A study of Mus musculus with 3 samples.

Results

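The 9 genes that report and restrain fibroblast growth factor (FGF) signalling were measured in forelimb buds of wild-type mouse embryos: Dusp6, Spry1, Spry2, Spry4, Spred1, Spred2, Etv4, Etv5 and Il17rd. They were chosen by name, as a set of FGF targets and inhibitors, and all 9 were found among the 15122 genes of the deposited count matrix. Cells were captured in droplets and their RNA was counted from its 3′ end (10x, version 2) by unique molecular identifiers (UMIs), so that PCR copies of a molecule are counted once. There were 3 libraries, each from 1 reaction: strain c57bl6.J at E10.5 (B6_E10.5), strain 129S6.sv at E9.5 (129_E9.5) and strain c57bl6.J at E9.5 (B6_E9.5), all labelled wild type and forelimb, with no treatment other than dissection and trypsin. The labels name no number of embryos per library, and with 1 library per group a stage or strain difference cannot be told apart from a difference between reactions. Levels are counts per 1000000 UMIs of a cell class in a library (CPM). Intervals cover counting error only.

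FGF ligands bind receptor tyrosine kinases and switch on the Ras, Raf, MEK and ERK kinases, and active ERK switches on genes that restrain the same pathway. In the limb bud, the apical ectodermal ridge at the distal rim makes Fgf8 and other FGFs that keep the mesenchyme beneath it growing, while Fgf10 from the mesenchyme signals back to the ectoderm. Etv4 (Pea3) and Etv5 (Erm) are ETS transcription factors induced by FGF. Dusp6 (MKP3) is a phosphatase that inactivates ERK. Spry1, Spry2 and Spry4 encode Sprouty proteins, and Spred1 and Spred2 their relatives with an EVH1 domain, all inhibitors of Ras and Raf signalling. Il17rd (Sef) is a membrane protein that restrains FGF receptor signalling.

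The promoters of 3 genes are shown because Dusp6 defined the cell comparison that carries most of the results and because Spry1 and Spry2 stood highest in ectoderm. Each is the 250 bases before the RefSeq gene start in GRCm38.p6, read 5′ to 3′ on the gene's strand, at chr10:99262981-99263230 (plus) for Dusp6, chr3:37639697-37639946 (plus) for Spry1 and chr14:105896820-105897069 (minus) for Spry2. Capitals mark GGAA, the short core read by ETS factors, or TTCC, the same letters on the other strand.
Dusp6: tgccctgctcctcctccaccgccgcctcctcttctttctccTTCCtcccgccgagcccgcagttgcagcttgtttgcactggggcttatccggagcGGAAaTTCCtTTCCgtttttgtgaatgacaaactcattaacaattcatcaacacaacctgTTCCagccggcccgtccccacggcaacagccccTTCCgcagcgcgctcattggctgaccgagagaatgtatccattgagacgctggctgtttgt
Spry1: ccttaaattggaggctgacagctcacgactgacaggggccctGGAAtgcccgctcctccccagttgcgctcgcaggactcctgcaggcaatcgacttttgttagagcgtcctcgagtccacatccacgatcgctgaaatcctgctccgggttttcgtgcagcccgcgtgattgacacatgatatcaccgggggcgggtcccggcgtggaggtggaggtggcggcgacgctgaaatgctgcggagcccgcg
Spry2: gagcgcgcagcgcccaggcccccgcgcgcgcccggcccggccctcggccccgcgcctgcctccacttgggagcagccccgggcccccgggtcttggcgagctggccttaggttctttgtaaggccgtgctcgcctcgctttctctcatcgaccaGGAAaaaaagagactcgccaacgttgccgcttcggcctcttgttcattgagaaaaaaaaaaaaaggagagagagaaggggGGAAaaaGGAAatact
The window held 6 short cores for Dusp6, 1 for Spry1 and 3 for Spry2. Of the 9 genes, 7 matched the RefSeq promoter table. GGAA on either strand was found in at least 1 window of all 7, but also of 94.21% of all 27025 genes (93.45% of 32851 windows), and 1 of the windows of Etv5 had 0 matches. It was searched only after a longer letter string had no match. That longer ETS string, CCGGAA, was in 0 of the 7 genes and in 13.59% of all genes (12.03% of windows), and the AP-1 string TGANTCA was in 0 of the 7 and in 7.819% (6.749% of windows). These matches describe letters in a window and say nothing of whether a factor binds there.

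In GRCm38 with GENCODE M21 annotation, all 9 are protein coding. Dusp6 lies on chromosome 10 at 99263231 to 99267489 on the plus strand, Spry1 on chromosome 3 at 37639947 to 37644598 (plus), Spry2 on chromosome 14 at 105891947 to 105896819 (minus) and Il17rd on chromosome 14 at 27038941 to 27107286 (plus). Spred1 lies on chromosome 2 at 117121374 to 117182279 (plus), Spred2 on chromosome 11 at 19924375 to 20024026 (plus), Etv4 on chromosome 11 at 101769742 to 101785371 (minus), Etv5 on chromosome 16 at 22381309 to 22439719 (minus) and Spry4 on chromosome 18 at 38586247 to 38601415 (minus).

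The libraries held 18957 (B6_E10.5), 12220 (129_E9.5) and 12773 (B6_E9.5) cells, with 119942504, 93029510 and 124388358 UMIs in that order and median depths of 5710, 7348 and 7623 UMIs per cell. Cells with under 2000 UMIs made up 10.1% in B6_E10.5, 3.49% in 129_E9.5 and 30.8% in B6_E9.5. The authors' 5 cell clusters are called here by their markers: limb mesenchyme-like (15325, 9233 and 9678 cells in the same order), ectoderm-like (1026, 1253 and 1009), muscle progenitor-like (1498, 647 and 285), endothelium-like (707, 458 and 850, with the megakaryocyte gene Pf4 among its leading genes) and erythroid-like (401, 629 and 951), shortened below to the tissue names. Prrx1 and Tbx5 were among the 10 leading genes of the mesenchyme, and Epcam, Trp63 and Sp8 were among those of the ectoderm. The endothelium-like class also held macrophage and other myeloid markers, at 1663 CPM in B6_E10.5, 24.1 CPM in 129_E9.5 and 39.2 CPM in B6_E9.5. Its megakaryocyte markers summed to 1333, 276 and 224 CPM in the same order, beside endothelial markers at 2078, 3031 and 2847 CPM. The part of these other markers in the levels of that class was not tested.

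All 9 genes had at least 1 UMI in every class of every library, and the order of the classes differed from gene to gene. In mesenchyme, Dusp6 stood at 132 CPM in B6_E10.5, 139 CPM in 129_E9.5 and 94.6 CPM in B6_E9.5, and in ectoderm at 55.5, 61.1 and 59.2 CPM in the same order. Endothelium held 102, 77.4 and 102 CPM of Dusp6, so that it stood above mesenchyme in B6_E9.5 and below it in the other libraries. Muscle progenitors had 31.4 CPM in B6_E10.5, 75.8 CPM in 129_E9.5 and 86.5 CPM in B6_E9.5. Erythroid cells had the lowest level of each gene in each library (27 of 27 combinations), with Dusp6 at 2.69, 2.98 and 16.0 CPM. The last value comes from B6_E9.5 erythroid cells with a median of 735 UMIs, against 14608 UMIs in B6_E10.5 and 12004 UMIs in 129_E9.5.

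**Figure D1:**
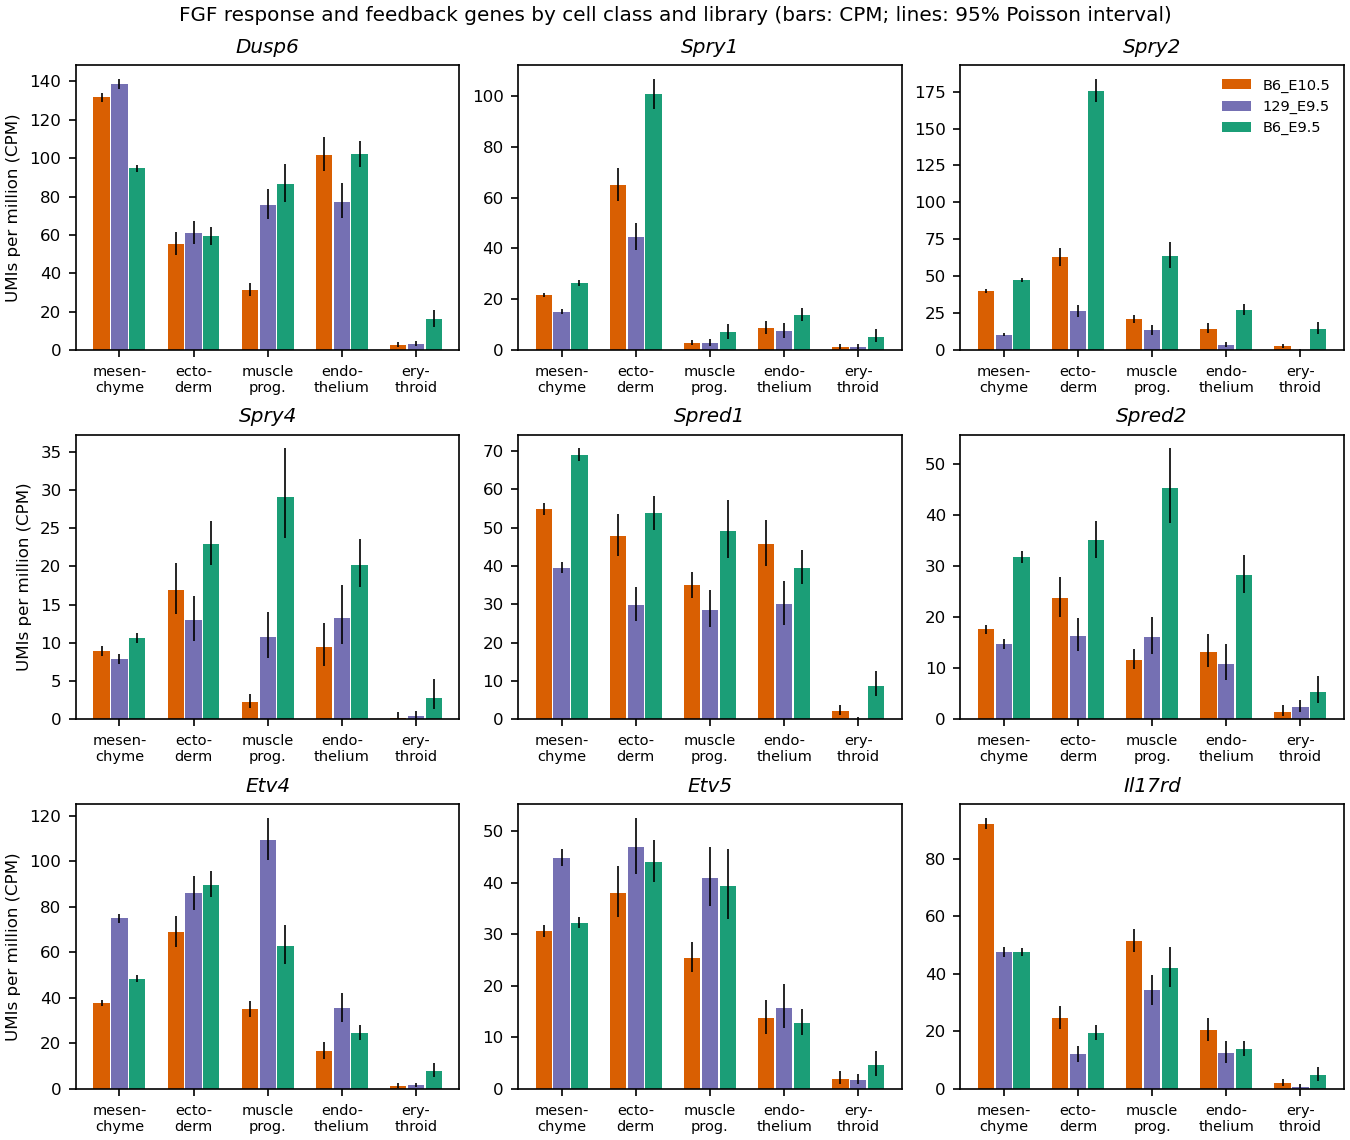
Levels of the 9 genes (CPM, linear axes from 0, 1 panel per gene) in 5 cell classes, with bars for B6_E10.5, 129_E9.5 and B6_E9.5 and lines for 95% Poisson intervals that cover counting error only. Within each library, Spry1 and Spry2 stand highest in ectoderm, with Spry2 at 62.7, 26.4 and 176 CPM. The erythroid bar is the lowest of its library in every panel.

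A UMI of Dusp6 was found in 37.7% of mesenchymal cells in B6_E10.5, 56.5% in 129_E9.5 and 44.4% in B6_E9.5, at median depths of 5422, 7463 and 8067 UMIs. After each cell was thinned to 2000 UMIs and shallower cells were left out (13704, 8967 and 6981 cells remained), the shares were 19.4%, 23.5% and 16.2%. Erythroid cells, which serve as a level of background, gave 2.99%, 3.02% and 5.68% before thinning and 1.02%, 0.161% and 1.27% after it. For all 9 genes the erythroid share was at most 3.74% in B6_E10.5, 3.02% in 129_E9.5 and 5.68% in B6_E9.5 before thinning.

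The ectoderm carried more Sprouty RNA and less Il17rd RNA than the mesenchyme. Spry1 stood at 64.9 CPM in ectoderm against 21.7 CPM in mesenchyme of B6_E10.5, at 44.6 against 15.1 CPM in 129_E9.5 and at 101 against 26.4 CPM in B6_E9.5. Its ratio was 3.0 (95% counting interval 2.68 to 3.34) in B6_E10.5, 2.96 (2.59 to 3.38) in 129_E9.5 and 3.82 (3.55 to 4.10) in B6_E9.5. Spry1 was thus higher in ectoderm in all 3 libraries. Spry2 had ratios of 1.57 (1.41 to 1.74), 2.53 (2.13 to 3.0) and 3.71 (3.52 to 3.92) in the same order, and Spry4 had 1.89 (1.52 to 2.32), 1.65 (1.29 to 2.09) and 2.16 (1.87 to 2.49). All 3 Sproutys were higher in ectoderm than in mesenchyme in each library. Il17rd went the other way, at 24.5 CPM in ectoderm against 92.2 CPM in mesenchyme of B6_E10.5, 12.0 against 47.6 CPM in 129_E9.5 and 19.5 against 47.7 CPM in B6_E9.5. Dusp6 was 2.37-fold lower in ectoderm (2.13 to 2.65) in B6_E10.5, 2.27-fold lower (2.05 to 2.52) in 129_E9.5 and 1.60-fold lower (1.48 to 1.74) in B6_E9.5. Etv4 had ratios of 1.83, 1.15 and 1.85 in the same order.

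At a 2-fold threshold, with genes tested where the higher of both sums reached 10 CPM and 20 UMIs, 1 of 9 was higher in ectoderm in B6_E10.5 (Spry1), where 8.16% of 8513 genes tested were, and 2 were lower (Dusp6 and Il17rd), where 5.27% were. In 129_E9.5 2 were higher (Spry1 and Spry2, beside 10.4% of 8177 genes) and 2 lower (Dusp6 and Il17rd, beside 4.78%). In B6_E9.5 3 were higher (Spry1, Spry2 and Spry4, beside 10.7% of 8252 genes) and 1 lower (Il17rd, beside 4.76%). The median log2 ratio of the 9 genes was 0.43, 0.16 and 0.45, against -0.04, -0.001 and 0.0002 over all genes tested. The classes were clustered on the expression of the same genes, so their differences are a description without a test. In B6_E9.5 thinning to 2000 UMIs moved Il17rd to a ratio of 0.63, and 0 genes were then 2-fold lower there.

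Outside these classes, Etv4 was highest in muscle progenitors of 129_E9.5 at 110 CPM, against 34.9 CPM in B6_E10.5 and 62.9 CPM in B6_E9.5. Neuron markers in this class summed to 780 CPM in 129_E9.5, against 12.0 CPM in B6_E10.5 and 7.28 CPM in B6_E9.5. Spry4 in muscle progenitors stood at 2.34 CPM in B6_E10.5, 10.7 CPM in 129_E9.5 and 29.1 CPM in B6_E9.5, a wider span than in mesenchyme. Somite markers in this class summed to 208, 467 and 775 CPM in the same order, endothelial markers to 27.2, 114 and 194 CPM, and the muscle genes Myf5 and Myod1 had no UMI in either E9.5 library. The part of these markers in the levels of Etv4 and Spry4 was not tested. Il17rd in muscle progenitors was at 51.4, 34.2 and 41.9 CPM. In the endothelial class, which in B6_E10.5 also held the macrophage and megakaryocyte markers given above, Spred1 was at 45.7, 30.0 and 39.5 CPM in the same order. Etv5 was there at 13.8, 15.7 and 12.9 CPM and Il17rd at 20.3, 12.4 and 13.9 CPM.

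The stage comparison, B6_E10.5 over B6_E9.5, asks how the response genes differ as the bud grows. In mesenchyme, Il17rd stood at 92.2 CPM in B6_E10.5 against 47.7 CPM in B6_E9.5, a ratio of 1.93 (1.87 to 2.0), and Dusp6 at 132 against 94.6 CPM, a ratio of 1.39 (1.35 to 1.43). These were the only members with a ratio above 1. Spred2 was at 17.7 CPM in B6_E10.5 against 31.9 CPM in B6_E9.5, or 1.80-fold lower (1.70 to 1.92). Etv4 (37.7 against 48.5 CPM), Spred1 (54.8 against 69.0 CPM), Spry1 (21.7 against 26.4 CPM), Spry2 (40.0 against 47.3 CPM) and Spry4 (8.93 against 10.6 CPM) were between 1.18-fold and 1.29-fold lower in B6_E10.5, with counting intervals below 1. The interval for Etv5, 0.903 to 1.00 around a ratio of 0.951, reached 1.

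At 2-fold, 0 of the 9 were higher (beside 6.63% of 8040 genes tested) and 0 lower (beside 2.67%). The median log2 ratio was -0.25 for the 9 genes and 0.07 for all genes. With TMM factors the median of all genes was -0.07 and that of the 9 genes was -0.38, and no member changed direction. RNA of red blood cells, which mesenchyme does not make, differed between these sums: 9 erythroid markers added to 302 CPM in mesenchyme of B6_E10.5, 451 CPM in 129_E9.5 and 1331 CPM in B6_E9.5, and with erythroid genes left out of the totals no count of the 9 genes changed. Of the other genes of the pathway, 0 of 19 ERK cascade genes tested were past 2-fold either way. Fgf10, the mesenchymal ligand, was at 19.5 CPM in B6_E10.5 against 47.1 CPM in B6_E9.5 and was the 1 ligand of 1 tested that was 2-fold lower. Among 16 other ERK feedback and response genes, Lrig3, an inhibitor of receptor tyrosine kinases, was higher (56.2 against 9.29 CPM), and 3 were lower: Dusp5, a nuclear ERK phosphatase (2.19 against 12.0 CPM), Myc (3.36 against 22.7 CPM) and Mycn (71.0 against 185 CPM). Fgfr1, the receptor of the mesenchyme, was at 142 CPM in B6_E10.5 against 74.7 CPM in B6_E9.5, a ratio of 1.90 (1.85 to 1.96).

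In ectoderm, Spry2 differed most between the stages, at 62.7 CPM in B6_E10.5 against 176 CPM in B6_E9.5, or 2.80-fold lower (2.51 to 3.13). Spry1 was at 64.9 against 101 CPM, or 1.55-fold lower (1.38 to 1.75), and Spred2 at 23.8 against 35.2 CPM, or 1.48-fold lower (1.22 to 1.80). Dusp6, Spred1 and Etv5 had intervals that included 1. Counted at 2-fold, 0 members were higher (beside 3.84% of 8305 genes) and 1 lower (Spry2, beside 1.77%). The ridge ligand Fgf8 itself was at 1003 CPM in B6_E10.5 ectoderm against 527 CPM in B6_E9.5, while the share of cells with a UMI of it went the other way, at 24.5% against 45.6% of all cells and 23.2% against 34.6% of thinned cells. Neural crest markers in this class summed to 248 CPM in B6_E10.5 against 36.3 CPM in B6_E9.5, and their part in the stage ratios was not tested. In Fgf8-negative ectoderm of B6_E10.5, thinned to 2000 UMIs, Tfap2b alone made 310 of the 326 CPM of this list. Fgf9 was at 33.2 against 5.68 CPM, and Fgf4 at 20.9 CPM in B6_E10.5 with 0 UMIs in B6_E9.5. Il17rd had a ratio of 1.26 (1.01 to 1.56) in all cells but of 0.692 in cells thinned to 2000 UMIs, so that its direction changed with thinning.

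**Figure D2:**
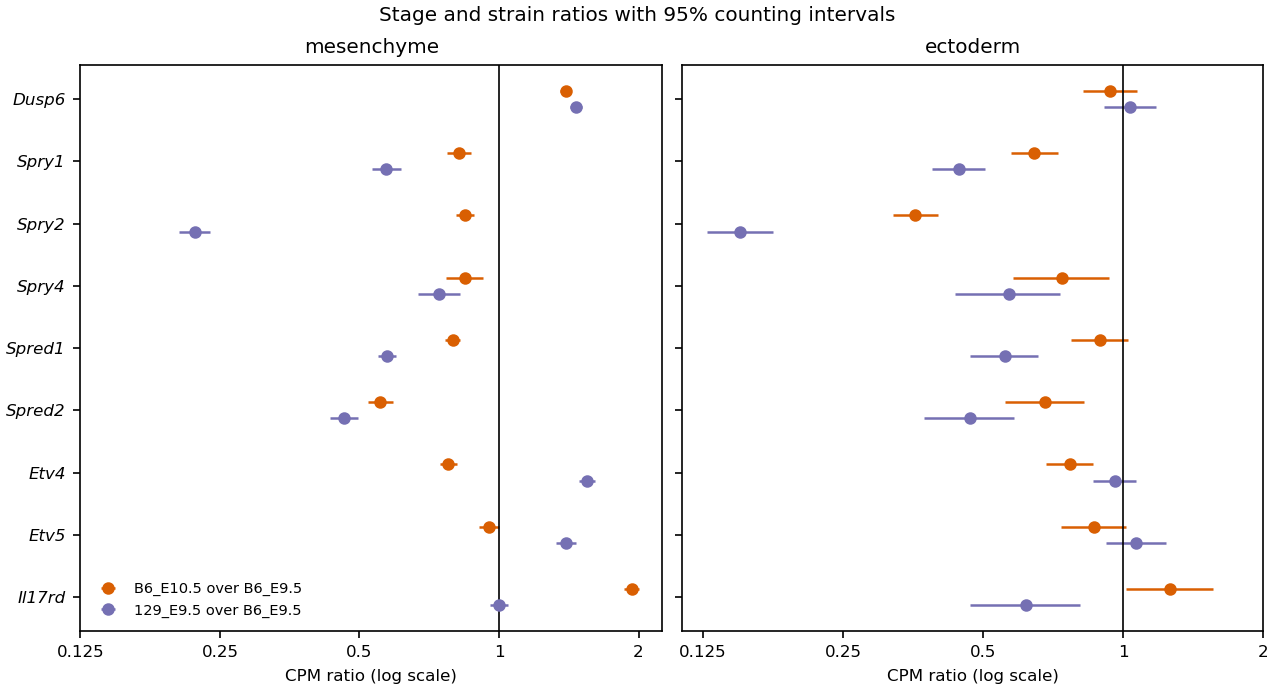
Ratios of CPM (log axis) for the 9 genes in mesenchyme and ectoderm, with B6_E10.5 over B6_E9.5 and 129_E9.5 over B6_E9.5 as points and 95% counting intervals as lines. Spry2 lies farthest from 1 in the strain comparison, at 0.221 in mesenchyme and 0.150 in ectoderm, and Il17rd at 1.93 is the highest stage ratio.

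In the strain comparison, 129_E9.5 over B6_E9.5, the Sprouty and Spred genes were lower and Dusp6, Etv4 and Etv5 higher in 129_E9.5 mesenchyme. Spry2 was at 10.4 CPM in 129_E9.5 mesenchyme against 47.3 CPM in B6_E9.5, or 4.53-fold lower (4.19 to 4.91), and at 26.4 against 176 CPM in ectoderm, or 6.65-fold lower (5.67 to 7.83). It was lowest in 129_E9.5 in all 5 classes: in muscle progenitors it stood at 20.9 CPM in B6_E10.5, 13.3 CPM in 129_E9.5 and 63.8 CPM in B6_E9.5, and in endothelium at 14.3, 3.25 and 27.0 CPM. The build mm10, which the submitters' processing notes name, was made from strain C57BL/6J, and the part of read mapping in the low Spry2 counts of 129_E9.5 was not tested. Spred2 was at 14.8 CPM in 129_E9.5 mesenchyme against 31.9 CPM in B6_E9.5, or 2.16-fold lower (2.01 to 2.32), and Spry1 and Spred1 were 1.75-fold lower (1.63 to 1.88) and 1.74-fold lower (1.67 to 1.82). Spry1, Spry2, Spry4, Spred1, Spred2 and Il17rd had no class in which 129_E9.5 exceeded B6_E9.5. The ETS factors lay on the other side in mesenchyme, with Etv4 at 75.0 CPM in 129_E9.5 against 48.5 CPM in B6_E9.5, a ratio of 1.55 (1.49 to 1.61), and Etv5 at 44.9 against 32.3 CPM, a ratio of 1.39 (1.33 to 1.46). Dusp6 had a ratio of 1.46 (1.42 to 1.51). Il17rd, at 47.6 CPM in 129_E9.5 against 47.7 CPM in B6_E9.5, had a ratio of 0.998 (0.954 to 1.04).

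At 2-fold in mesenchyme, 0 members were higher (beside 2.68% of 7750 genes) and 2 lower (Spry2 and Spred2, beside 4.05%), with a median log2 ratio of -0.43 against 0.03 over all genes. In ectoderm, 0 were higher (beside 2.37% of 8147 genes) and 3 lower (Spry1, Spry2 and Spred2, beside 3.42%), with a median of -0.82 against 0.04. The ectoderm count depended on how cells were weighted: with every cell thinned to 2000 UMIs and shallower cells left out, 6 were lower, Spry4, Spred1 and Il17rd being added, and with the mean of per-cell CPM 5 were. Etv4, Etv5 and Dusp6 in ectoderm had ratios of 0.957, 1.07 and 1.03, each with an interval that included 1. Of the other pathway genes in mesenchyme, 2 of 7 receptors and cofactors were lower, Fgfr2 (8.77 CPM in 129_E9.5 against 23.4 CPM in B6_E9.5) and Fgfrl1, a receptor without a kinase domain (4.55 against 14.2 CPM). Dusp7, Myc and Mycn were also lower, while the immediate-early genes Dusp1 (26.0 against 12.1 CPM) and Egr1 (10.53 against 3.88 CPM) were higher, among 18 other feedback and response genes tested. The ERK cascade list had 0 of 18 genes past 2-fold. In ectoderm, Dusp1, Egr1 and Fos were higher and Dusp7 lower among 18, and Egr1 stood at 41.3 CPM in 129_E9.5 against 13.6 CPM in B6_E9.5. These early genes can be switched on while tissue is dissociated; their part in the differences of the 9 genes was not tested.

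Whether the 9 genes were read in the same mesenchymal cells was asked within each library, in cells thinned to 2000 UMIs, with the odds ratio of having a UMI of both genes. At this depth 50.3% of cells in B6_E10.5, 48.5% in 129_E9.5 and 47.4% in B6_E9.5 had none of the 9, and 1.11%, 0.346% and 0.731% had 4 or more. Over the 36 pairs, the median odds ratio was 1.52 in B6_E10.5 (range 1.00 to 4.74), 1.26 in 129_E9.5 (0.855 to 1.83) and 1.33 in B6_E9.5 (0.640 to 1.98). It was above 1 for 36, 31 and 35 pairs in the same order, and for 30 pairs in all 3 libraries. With a second random draw of UMIs 35, 27 and 31 pairs were above 1. Thinned to 1000 UMIs, 32, 21 and 28 were. Among 36 pairs of 9 housekeeping genes treated alike, the medians were 1.03, 1.01 and 1.06, and 9 pairs were above 1 in all 3 libraries. By library, 21, 19 and 23 housekeeping pairs were above 1. The second draw gave 19, 25 and 19 of them, and thinning to 1000 UMIs gave 21, 18 and 18. The housekeeping genes were more abundant, summing to 1472, 1607 and 1463 CPM in thinned mesenchyme without a UMI of Dusp6. The 9 FGF genes summed to 435, 394 and 408 CPM in all mesenchyme, so detection was not matched. Pairs of 1 of the 9 genes with 1 housekeeping gene (81 pairs) had medians of 1.06, 0.989 and 0.979. Pairs share cells and genes, so these odds ratios are a description without a test.

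**Figure D3:**
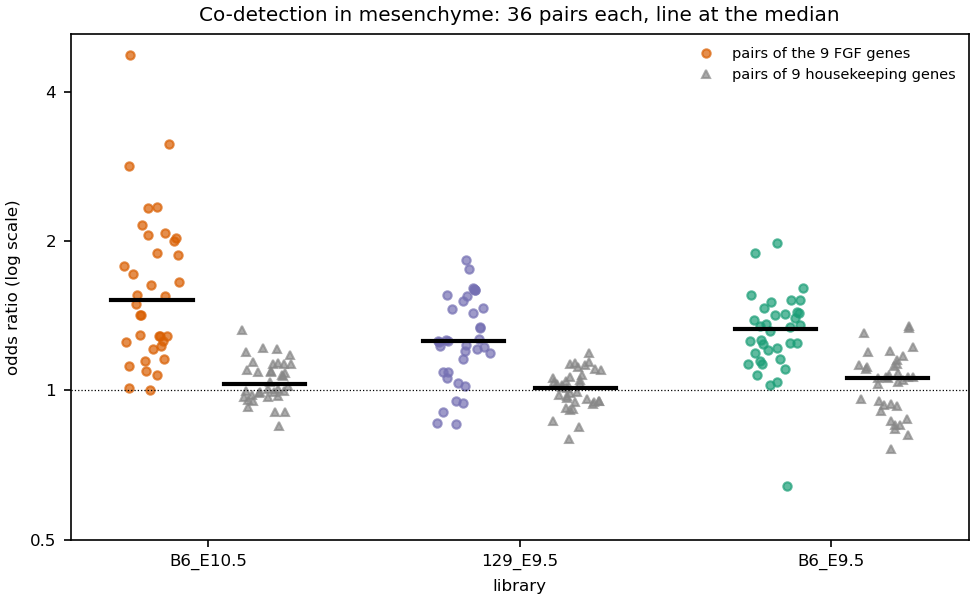
Odds ratios of co-detection (log axis) in mesenchymal cells thinned to 2000 UMIs for 36 pairs of the 9 FGF genes (circles) and 36 pairs of housekeeping genes (triangles) in each library, with a bar at the median. The medians of the FGF pairs are 1.52, 1.26 and 1.33, and those of the housekeeping pairs are 1.03, 1.01 and 1.06.

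Among the pairs with Dusp6, that with Spry4 was highest in B6_E10.5, where 3.61% of Dusp6-positive cells had Spry4 against 1.18% of Dusp6-negative cells, an odds ratio of 3.14 (2.38 to 4.14). The same pair had 1.25 (0.822 to 1.88) in 129_E9.5 and 1.89 (1.25 to 2.81) in B6_E9.5. Dusp6 with Spry1 had 2.84 (2.35 to 3.43), 1.34 (1.00 to 1.78) and 1.44 (1.09 to 1.88) in the same order. The highest odds ratio of all was Spry1 with Spry4 in B6_E10.5, 4.74 (3.14 to 6.98), which rested on 33 cells with both and was 1.46 (0.462 to 3.55) in 129_E9.5 and 1.03 (0.401 to 2.20) in B6_E9.5. Both ETS factors together had 2.03 (1.58 to 2.58), 1.02 (0.809 to 1.27) and 1.25 (0.900 to 1.70). Of the 36 pairs, 23 were highest in B6_E10.5, 7 in 129_E9.5 and 6 in B6_E9.5. Spry2 with Il17rd (1.78, 1.76 and 1.52) and Spry4 with Etv5 (2.0, 1.55 and 1.51) were the 2 pairs above 1.5 in all 3 libraries. With a second random draw of UMIs 1 pair met this mark, and without thinning 18 did, while the housekeeping medians without thinning were 2.0, 1.72 and 5.87.

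**Figure D4:**
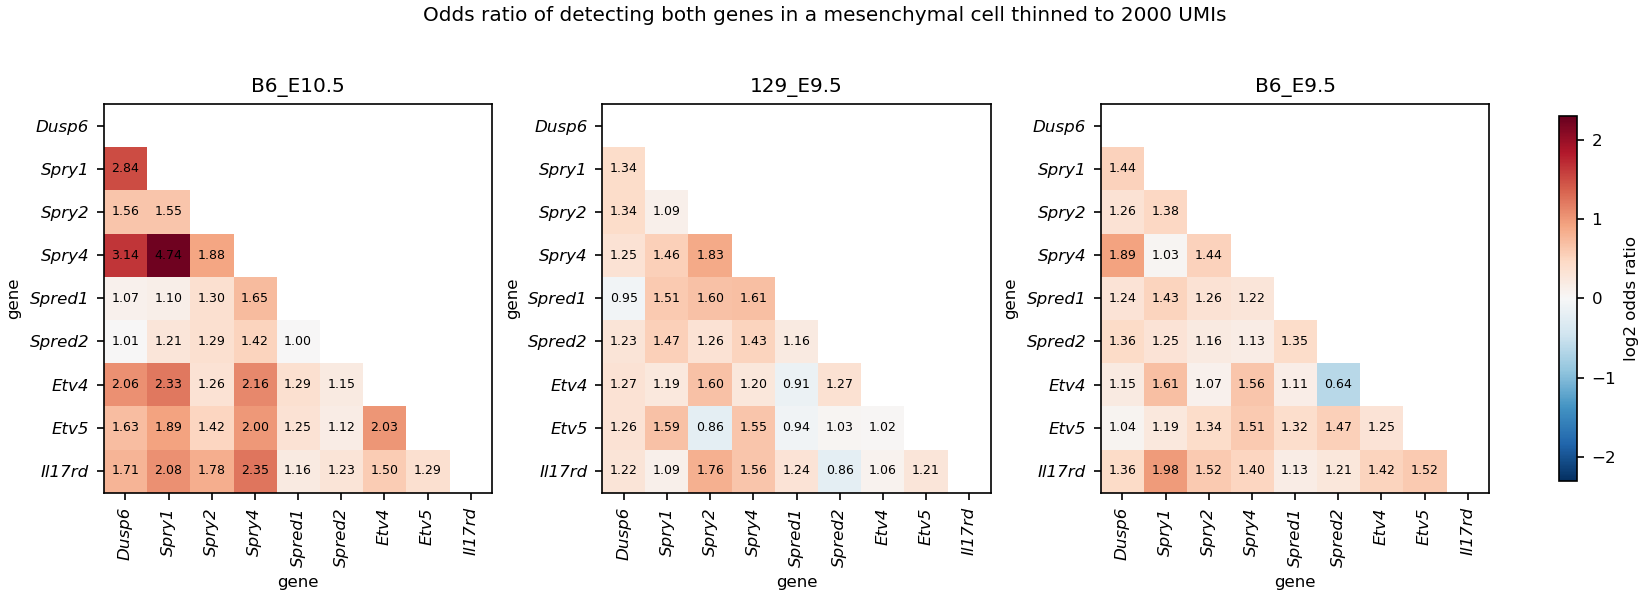
Odds ratio for each of the 36 gene pairs in B6_E10.5, 129_E9.5 and B6_E9.5, coloured by its log2 (red above 0, blue below), in mesenchymal cells thinned to 2000 UMIs. The B6_E10.5 matrix holds the highest values, 4.74 for Spry1 with Spry4 and 3.14 for Dusp6 with Spry4, and the Spred1 and Spred2 rows stay closest to 1 there.

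Markers of other mesenchymal positions went the other way in B6_E10.5, and with fewer of the genes in B6_E9.5. Meis1 and Meis2, homeobox genes of the proximal limb, had odds ratios under 1 with all 9 genes in B6_E10.5 and in 129_E9.5, and in B6_E9.5 with 6 (Meis1) and 8 (Meis2). For Dusp6 with Meis1 the values were 0.420 (0.360 to 0.488) in B6_E10.5, 0.897 (0.768 to 1.05) in 129_E9.5 and 1.10 (0.919 to 1.30) in B6_E9.5. Sox9, the cartilage factor, was under 1 with 9, 7 and 4 of the genes, Fgfr2 with 8, 7 and 8, and Fgfr1 with 7, 5 and 3. Fgf10 was above 1 with most of them, and under 1 with 1, 3 and 1.

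For a fit across libraries, UMIs of the same thinned mesenchymal cells were summed over Dusp6-positive and Dusp6-negative cells of each library (2660 and 11044 cells in B6_E10.5, 2109 and 6858 in 129_E9.5, 1130 and 5851 in B6_E9.5). The cells and Dusp6 calls are those of the odds ratios above. For the 8 other genes the fit therefore restates that co-detection and is not separate support for it. All 8 other genes had a fitted log2 fold change above 0, and 6 passed edgeR's quasi-likelihood test with the library as a block and an adjusted p under 0.05 over 10981 genes. Spry4 rose by 1.11 ± 0.19 (log2, SE, adjusted p = 0.0011), Spry1 by 0.89 ± 0.15 (adjusted p = 0.0014), Il17rd by 0.51 ± 0.08 (adjusted p = 0.00087), Etv4 by 0.49 ± 0.11 (adjusted p = 0.014), Spry2 by 0.48 ± 0.09 (adjusted p = 0.0029) and Etv5 by 0.38 ± 0.10 (adjusted p = 0.040). The direction was the same in 3 of 3 libraries for each of the 6, though the counting interval of the ratio included 1 in 129_E9.5 for Spry1, Spry2 and Spry4 and in B6_E9.5 for Etv4 and Etv5. Spred2, at 0.27 ± 0.11 (adjusted p = 0.33), and Spred1, at 0.13 ± 0.08 (adjusted p = 0.57), did not pass. The background is 0.683% of genes called higher and 1.08% called lower, and 0 of the 8 were lower (0 also at an unadjusted p under 0.05).

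Values by library show where the difference was widest. Spry4 had 18.8 CPM in Dusp6-positive cells against 6.16 CPM in negative cells of B6_E10.5, 8.77 against 6.78 CPM in 129_E9.5 and 17.7 against 8.72 CPM in B6_E9.5. Spry1 had 39.7 against 14.4 CPM, 17.5 against 13.3 CPM and 34.1 against 25.3 CPM in the same order. Il17rd had 126 against 76.4 CPM, 51.7 against 43.7 CPM and 58.0 against 44.4 CPM. For each of these 3 genes the ratio was largest in B6_E10.5, and the calls depended on that library. Without B6_E10.5 0 of the 8 passed (the log2 fold change of Il17rd was then 0.30), and without 129_E9.5 3 passed. DESeq2 with the same block called 0, with adjusted p of 0.063 to 1.00 for the 6 genes, and 14 genes higher and 20 lower in all.

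**Figure D5:**
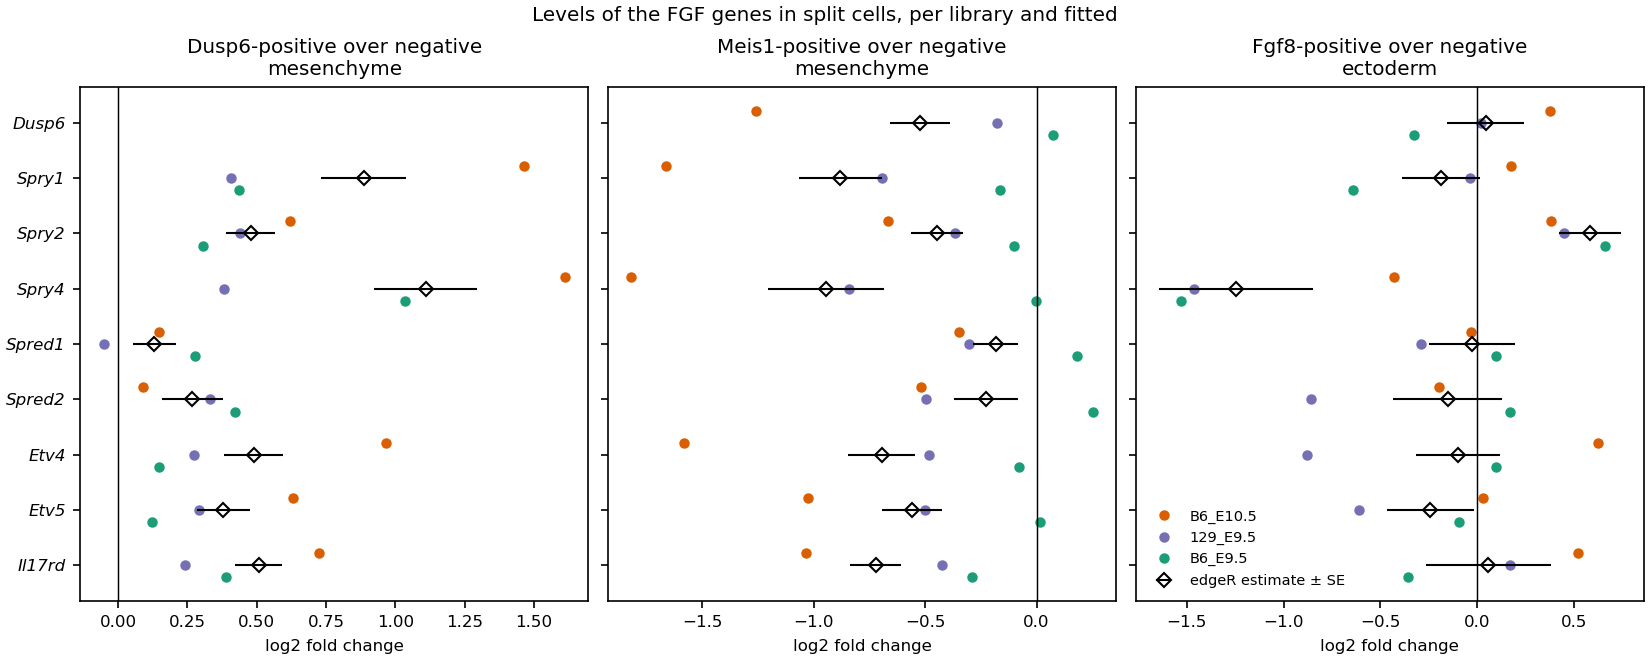
Log2 fold change of the 9 genes between positive and negative cells split by Dusp6 (mesenchyme), Meis1 (mesenchyme) and Fgf8 (ectoderm), with circles for each library (UMIs summed over cells thinned to 2000) and open diamonds with lines for the edgeR estimate ± SE. In the Dusp6 panel the B6_E10.5 circles reach 1.61 for Spry4 and 1.46 for Spry1, and in the Meis1 panel they lie farthest below 0 for all 9 genes.

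Dusp6-positive cells also differed in genes of limb position. Of 15 distal mesenchyme genes tested, 9 rose and 0 fell (0 fell also at an unadjusted p under 0.05), among them Cyp26b1, which breaks down retinoic acid (log2 fold change 0.86), Lhx9 (0.41), the homeobox gene Msx1 (0.75) and Sall3 (0.74). Of 9 proximal genes 0 rose and 6 fell, among them Emx2 (-1.15), Meis2 (-0.67) and Irx5 (-0.77). Of 7 cartilage genes 0 rose and 3 fell: Sox9 (-0.75), Col2a1 (-0.88) and Col9a1. The median log2 fold change was 0.59 for the distal list, -0.66 for the proximal list and -0.62 for the cartilage list, against 0.00 over all genes. The distal list summed to 1390 against 722 CPM in B6_E10.5, 1186 against 944 CPM in 129_E9.5 and 1108 against 911 CPM in B6_E9.5. The proximal list had 564 against 1221, 645 against 836 and 869 against 981 CPM in the same order. Both differences were widest in B6_E10.5. Without that library 33 genes were called higher and 50 lower in all, against 75 and 119 with it. Of 7 receptors and cofactors 2 fell, Fgfr2 (-0.71) and Flrt2 (-0.45), and of 25 other feedback and response genes Lhx2 (0.52) and Mycn (0.30) rose. In the ERK cascade list 0 of 21 passed (1 at an unadjusted p under 0.05), and in the S phase, G2 and M phase and housekeeping lists 0 of 15, 0 of 15 and 0 of 9 (3, 2 and 2 at an unadjusted p under 0.05).

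Among the genes with the smallest adjusted p by edgeR of those higher in Dusp6-positive cells of all 3 libraries were Pmaip1, an apoptosis gene (1.43 ± 0.11), Hoxa10 (0.52 ± 0.06), Nnat (0.31 ± 0.04), Cyp26b1, Lhx9, Lmo2 (1.41 ± 0.18), Hoxd10 (0.47 ± 0.06), Asb4 (0.31 ± 0.04) and Zic5 (0.91 ± 0.13). Pmaip1 was at 121 CPM in positive against 43.3 CPM in negative cells of B6_E10.5, but at 4.74 against 2.48 CPM in 129_E9.5 and 0.885 against 0.427 CPM in B6_E9.5. Those that fell were the imprinted gene Dlk1 (-0.83 ± 0.06), the WNT inhibitor Sfrp1 (-1.08 ± 0.08), Foxp1 (-0.97 ± 0.10), Sox9, Sparc (-1.12 ± 0.12), Runx1t1 (-0.96 ± 0.10), Igfbp5 (-1.24 ± 0.14), Emx2, Jun (-0.98 ± 0.11) and Fibin (-1.02 ± 0.12). Dlk1 was at 82.0 against 171 CPM in B6_E10.5, 144 against 255 CPM in 129_E9.5 and 209 against 318 CPM in B6_E9.5.

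Markers of other cell types differed in part with this split. The summed level of 10 surface ectoderm markers was 34.2 CPM in Dusp6-positive cells against 24.9 CPM in negative cells of B6_E10.5, 72.1 against 59.1 CPM in 129_E9.5 and 54.4 against 55.9 CPM in B6_E9.5, with Tfap2c higher and Krt18 lower. That of 8 endothelial markers was 30.3 against 27.2 CPM, 33.9 against 32.7 CPM and 32.3 against 36.7 CPM in the same order. That of 7 muscle progenitor markers was 24.6 against 46.2 CPM, 7.82 against 10.9 CPM and 9.73 against 11.5 CPM, and that of 5 somite markers 50.9 against 94.3 CPM, 14.5 against 20.9 CPM and 9.73 against 13.7 CPM. That of 6 neural crest markers was 24.2 against 11.2 CPM, 4.03 against 3.14 CPM and 6.64 against 5.30 CPM. By edgeR Tcf15 of the somite list and Upk3b of the mesothelium list fell. Without cells that held a UMI of a defining marker of ectoderm, endothelium or muscle, 6 of the 8 genes still passed. Cells with somite or neural crest markers were kept in that fit, and their part in the result was not tested. Before thinning, positive cells were deeper, with medians of 6910.5 against 5717 UMIs in B6_E10.5, 7746 against 7493 in 129_E9.5 and 14878.5 against 13786 in B6_E9.5; thinning set all to 2000.

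Split by Meis1, which marks proximal mesenchyme, the 9 genes each had a fitted log2 fold change below 0. Positive and negative cells numbered 2091 and 11613 in B6_E10.5, 1103 and 7864 in 129_E9.5 and 1101 and 5880 in B6_E9.5. The cells and Meis1 calls are those of the Meis1 odds ratios above, so the split is not separate support for them. By edgeR with the library block over 11021 genes, 7 of 9 fell and 0 rose, where 1.54% of genes fell and 1.8% rose (0 of the 9 rose at an unadjusted p under 0.05). Il17rd fell by 0.72 ± 0.11 (log2, SE, adjusted p = 0.00020), Spry1 by 0.88 ± 0.19 (adjusted p = 0.0051), Etv4 by 0.70 ± 0.15 (adjusted p = 0.0059), Etv5 by 0.56 ± 0.14 (adjusted p = 0.017), Dusp6 by 0.52 ± 0.13 (adjusted p = 0.025), Spry2 by 0.45 ± 0.12 (adjusted p = 0.029) and Spry4 by 0.95 ± 0.26 (adjusted p = 0.039). Spred1 (-0.18 ± 0.10) and Spred2 (-0.23 ± 0.14) did not pass. The direction was shared by 3 of 3 libraries for Il17rd, Spry1, Spry2, Spry4 and Etv4. It was shared by 2 of 3 for Dusp6, Etv5, Spred1 and Spred2, which were higher in Meis1-positive cells of B6_E9.5.

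The library at E10.5 again had the widest difference. Dusp6 was at 55.5 CPM in Meis1-positive against 133 CPM in negative cells of B6_E10.5, 125 against 142 CPM in 129_E9.5 and 94.5 against 89.8 CPM in B6_E9.5. Etv4 was at 12.4 against 37.6 CPM, 53.5 against 75.1 CPM and 45.0 against 47.7 CPM in the same order. In B6_E9.5 the counting interval of the ratio included 1 for 9 of 9 genes. Without B6_E10.5 0 of the 9 passed, DESeq2 called 1 (Il17rd), and with library totals in place of TMM factors or without thinning 3 passed. The distal list had 13 of 15 lower and 0 higher, the proximal list 6 of 8 higher and 0 lower, and Fgfr2 (0.91) and Flrt2 (0.51) rose. Of 7 cartilage genes 4 rose and 0 fell by edgeR. Rrm2 and Mcm3 fell among 15 S phase genes, Hprt fell among 9 housekeeping genes, and 0 of 15 G2 and M phase genes were called. At an unadjusted p under 0.05 by edgeR, 5, 3 and 2 genes of these last 3 lists fell and 0 rose. Somite markers stood at 119 CPM in Meis1-positive against 80.0 CPM in negative cells of B6_E10.5, 24.9 against 18.6 CPM in 129_E9.5 and 18.6 against 12.0 CPM in B6_E9.5, and muscle progenitor markers at 77.0 against 35.7 CPM, 11.8 against 9.92 CPM and 11.8 against 11.1 CPM. Without cells that held a defining marker of ectoderm, endothelium or muscle, 7 of the 9 still fell, and the part of somite markers was not tested. Meis1-positive cells were shallower before thinning, with medians of 5059 against 6102 UMIs in B6_E10.5, 7063 against 7625 in 129_E9.5 and 13474 against 14032 in B6_E9.5.

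Within the ectoderm, cells with a UMI of Fgf8, the ridge ligand, were set against cells without one (212 and 700 cells in B6_E10.5, 436 and 721 in 129_E9.5, 307 and 580 in B6_E9.5). Spry2 alone of the 9 rose, by 0.58 ± 0.16 (log2, SE, edgeR adjusted p = 0.026), with the same direction in 3 of 3 libraries, while 4.78% of 7986 genes rose and 2.5% fell. It was at 89.6 CPM in Fgf8-positive against 69.3 CPM in negative cells of B6_E10.5, 32.1 against 23.6 CPM in 129_E9.5 and 264 against 167 CPM in B6_E9.5. Spry4 was lower in positive cells of all 3 libraries (11.8 against 17.1 CPM, 4.59 against 13.9 CPM and 9.77 against 30.2 CPM), on 5, 4 and 6 UMIs, and did not pass (-1.25 ± 0.40, adjusted p = 0.064). For the other 7 genes the fitted change lay between -0.24 and 0.06. No member fell by edgeR (1 did at an unadjusted p under 0.05, Spry4) or by DESeq2. Spry4 did pass by edgeR without a filter, thinned to 1000 UMIs, without thinning, without the 5% of cells with most UMIs and without B6_E10.5, with adjusted p of 0.013 to 0.047, and over the other alternatives adjusted p was 0.053 to 0.96. The call for Spry2 was lost by DESeq2 (adjusted p = 0.69), without 129_E9.5, without B6_E9.5, and without cells holding markers of mesenchyme, endothelium or muscle (adjusted p = 0.068, log2 fold change 0.54). In this split Egr1 (1.65), Cnpy2 (0.52) and Dusp2 (1.48) rose and Dusp9 (-0.57) and Mycn (-0.69) fell among 17 other feedback and response genes, Gpc3 (-0.69) fell among 5 receptors and cofactors, and 0 of 18 ERK cascade genes passed (2 at an unadjusted p under 0.05). Markers of limb mesenchyme differed with this split too, at 792 CPM in Fgf8-positive against 237 CPM in negative cells of B6_E10.5, 745 against 300.3 CPM in 129_E9.5 and 617 against 487 CPM in B6_E9.5. Of 6 tested, 4 were higher (Pdgfra, Msx1, Col1a2 and Tbx3) and 1 was lower (Prrx2), so the list did not move as a whole. Markers of neural crest went the other way, at 28.3 against 326 CPM, 16.1 against 71.4 CPM and 21.2 against 53.4 CPM in the same order. So did somite markers, at 18.9 against 25 CPM, 4.59 against 74.9 CPM and 1.63 against 63.8 CPM. In negative cells Tfap2b alone made 310, 55.5 and 29.3 CPM of the neural crest sums. Meox1 alone made 19.3, 72.8 and 62.1 CPM of the somite sums there. Neuron markers stood at 120 against 31.4 CPM, 150 against 52.0 CPM and 101 against 20.7 CPM. Tubb3 alone made 120 against 22.1 CPM, 149 against 43.7 CPM and 101 against 19.8 CPM of these sums. The part of these 3 lists in the result for Spry2 was not tested. Median depths before thinning were 5701 against 6340 UMIs, 4426 against 5268 and 12338 against 11226 in the same order.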

How the data were processed

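The values used are raw UMI counts per gene and cell, deposited by the authors in 1 matrix and not normalized, as the file's whole numbers and headers show, per the file headers. Per the submitters' processing notes, Cell Ranger 3 and the mm10 genome build were used, without an annotation release named there. Cluster, stage and strain of each cell came from the authors' deposited cell table. No cell was removed; 1728 cells carry a barcode found in more than 1 library, and each was counted in its own. No doublet caller was run, and the 5% of cells with most UMIs were left out as an alternative.

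Class sums were divided by the class's UMIs (CPM). Intervals are exact 95% Poisson, Clopper-Pearson or conditional binomial ones and, like floors of 3 counts, cover counting error only. For co-detection and splits, cells were thinned to 2000 UMIs without replacement. Split sums were tested with edgeR 4.0.16 (quasi-likelihood, TMM, library as a block, Benjamini-Hochberg over all genes tested) in R 4.3.3, with DESeq2 1.42.0 as an alternative. The fit was also run on simulated counts in which a gene had the same fold in all 3 libraries. Folds in these data differed between libraries, so that run does not give the error rate of the fits reported here. Because both sides of a split come from the same library, the block pairs them. Nothing says that libraries are separate embryos of 1 group. The p-values set the difference between positive and negative cells against a spread over these 3 libraries that edgeR moderates across genes. The SE was derived from the same test statistic, so it can be narrower than a gene's own spread over the libraries. Spry1 in the Dusp6 split had log2 values of 1.46 in B6_E10.5, 0.41 in 129_E9.5 and 0.44 in B6_E9.5, beside a fitted 0.89 ± 0.15. The 9 genes and all gene lists were chosen with earlier results of these data known. The named genes are the 9, the 10 of smallest adjusted p in each direction of the Dusp6 split with 1 direction in 3 libraries (predicted, ribosomal and mitochondrial genes left out), 7 context genes and at most 4 called genes per list; other genes named were chosen after their values were seen. Some genes that the rule names are not reported here.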

Additional observations from a re-analysis of the deposited data

Results flagged for a closer look

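In the ectoderm split by Fgf8, Etv4 lay on opposite sides in different libraries, with counting intervals that excluded 1 on each side. Its ratio of Fgf8-positive over Fgf8-negative cells was 1.53 (1.02 to 2.27) in B6_E10.5, on 39 and 84 UMIs, and 0.540 (0.385 to 0.748) in 129_E9.5, on 50 and 153 UMIs. In B6_E9.5 it was 1.06 (0.734 to 1.53). The difference between the libraries was not tested.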

How the results depend on the processing

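No paired analysis was possible between libraries because each group has 1 library; for the splits, the fit without the library block (no replicate block) called 0 genes higher and 0 lower in the Dusp6 and Meis1 splits and 53 higher and 12 lower in the Fgf8 split, with 0 of the 9 genes in each, since the spread then includes the differences between libraries. Elsewhere the cause of a change was not tested unless stated.

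At 1.5-fold, a lower bar by construction, the counts of the 9 genes were 1 higher and 1 lower for stage in mesenchyme (beside 15.9% and 8.91% of genes), 1 higher and 4 lower for strain in mesenchyme (12.9% and 12.1%), 2 lower for stage (5.97%) and 6 lower for strain (10.9%) in ectoderm, 4 higher in ectoderm over mesenchyme of B6_E10.5 (13.3%) and 2 lower in that of B6_E9.5 (11.2%). With the mean of per-cell CPM they were 1 higher for stage and 1 lower for strain in mesenchyme and 5 lower for strain in ectoderm. With at least 50 CPM, which leaves fewer genes, they were 0 lower of 3 tested for strain in mesenchyme (beside 3.53%; Spry2 and Spred2 were not tested), 0 higher (7.6%) and 1 lower (3.35%) of 2 tested for ectoderm over mesenchyme in 129_E9.5, and 0 lower of 5 tested (3.63%) in B6_E9.5. Thinned to 2000 UMIs they were 6 lower for strain in ectoderm and 0 lower for ectoderm over mesenchyme of B6_E9.5, and the stage ratio of Il17rd in ectoderm was 0.692.

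Pairs above 1.5 in all 3 libraries numbered 18 without thinning and 1 with a second random draw. Some odds ratios changed side under an alternative: thinned to 1000 UMIs, Dusp6 with Spred1 (0.966), Spry1 with Spred1 (0.966) and Etv4 with Il17rd (0.839) in B6_E9.5, Spry1 with Etv5 in 129_E9.5 (0.149) and Spry4 with Spred1 (0.497) and with Etv5 (0.934) in B6_E10.5; with the second draw, Dusp6 with Spred1 (0.927), Spred2 with Etv5 (0.898) and Spred2 with Etv4 (1.19) in B6_E9.5; and Spred2 with Etv4 there also at 4000 UMIs (1.13) and without thinning (2.91).

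Counts of genes in the Dusp6 split were 14 higher and 20 lower by DESeq2, 141 and 248 without a filter, 49 higher at 1000 UMIs, 186 and 395 without thinning, and 31 to 125 higher and 49 to 205 lower with a library left out; the 9 genes gave 0 higher by DESeq2 and 0 to 6 with a library left out. In the Fgf8 split they were 118 and 40 by DESeq2, 311 lower without a filter, 195 and 78 at 1000 UMIs, 668 and 506 without thinning, and 214 to 498 higher and 96 to 283 lower with a library left out. Of the 9 genes there, 0 were higher by DESeq2 and without cells holding markers of other cell types, and 1 was lower without a filter, at 1000 UMIs, without thinning and without the 5% of cells with most UMIs; with a library left out 0 to 1 were higher and 0 to 1 lower. In the Meis1 split they were 45 and 33 by DESeq2, 110 higher at 1000 UMIs, 102 lower with library totals only, 319 lower without a filter, 281 lower at 4000 UMIs, and 27 to 339 higher and 22 to 252 lower with a library left out. The 9 genes gave 1 lower by DESeq2, 3 with library totals only, 3 without thinning and 0 to 8 with a library left out. DESeq2 size factors in edgeR moved none of these counts past 1.5 times. Depth limits the erythroid cells of B6_E9.5, with a median of 735 UMIs, and Spry4 in Fgf8-positive ectoderm, with 4 to 6 UMIs a library.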
